A study of Rattus norvegicus with 8 samples.

Results

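Complement components, receptors and regulators were examined in the injured L5 dorsal root ganglion (DRG) of rats whose L5 spinal nerve had been cut 14 days earlier. The 9 genes were Cd55, C1qa, C1qb, C1qc, C3, Cfb, Serping1, C3ar1 and C5ar1. Cd55 was selected on its lower value with HDACI in these same arrays, so its difference between groups is given as a description with no test. The other 8 were picked for their place in the pathway. A probe set carrying a single gene symbol was found for 8 of the 9 genes, among 14497 genes and 28826 probe sets measured in all. The only probe set listing Cfb, the protease of the alternative pathway, also lists C2, so no value is given for either gene. Each of the 8 measured genes had 1 probe set.

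Ganglia came from 4 adult male Wistar rats given MS-275, a histone deacetylase inhibitor (HDACI) selective for class I enzymes, intrathecally at 30 nmol per day by osmotic pump, and from 4 rats given vehicle, which was DMSO in saline. All 8 animals had the nerve transection, and pumps delivered drug or vehicle from before the injury until tissue was taken. The catheter ended at an upper lumbar level of the cord, above the ganglion studied, and whole ganglia were assayed. Each ganglion sample went on 1 Affymetrix Rat Gene 1.0 ST array, and values are log2 signals after robust multi-array averaging (RMA), so that a difference of 1 is a doubling of signal.

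Complement is a cascade of plasma and cell surface proteins. C1q binds immune complexes, dying cells and synapses, and its proteases lead to cleavage of C3, from which the alternative pathway amplifies the reaction. Fragments of C3 and C5 act on receptors of myeloid cells, and regulators such as Cd55 and Serping1 hold the cascade back. In nervous tissue, C1q is made largely by macrophages and microglia, and macrophages gather in the DRG after peripheral nerve injury.

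Some arrays stood apart before any complement gene was considered. Markers of sensory neurons (13 of 13 measured), satellite glia (7 of 7) and myelinating Schwann cells (8 of 8) were all brighter than the median probe set, as were 17 of 19 macrophage markers. The mean of the macrophage markers, each centred on its own average over the 8 arrays, ran between -0.17 and 0.38 in HDACI arrays and between -0.12 and 0.13 in vehicle arrays (log2). HDACI replicate 4 held the highest value, and it was also highest in 11 of 12 markers of fibroblasts and meninges. The mean of 16 skeletal muscle markers lay between -1.26 and -0.79 in HDACI arrays, against 2.47, 1.69, -1.10 and 0.68 in vehicle replicates 1 to 4. All 16 were lower in HDACI, with a median difference of -1.90. By the limma test between groups, 14 of 16 passed an unadjusted p of 0.05 and 0 an adjusted one. Over all probe sets 1.93% were lower at the unadjusted threshold.

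No complement gene picked by pathway passed the test between groups. By limma with Benjamini-Hochberg adjustment, 0 of 7 measured genes passed an adjusted p of 0.05 (adjusted p = 1.0 for each), and 0 of 7 passed an unadjusted p of 0.05. Over all probe sets, 0% passed the adjusted threshold, and 1.93% were lower and 1.61% higher in HDACI at the unadjusted one. Groups overlapped for all 7 genes, where 1.09% of all probe sets had every HDACI array below every vehicle array and 1.01% had every one above. Of the 7 differences 6 were positive and 1 was negative, with a median of 0.09. Over all probe sets the median was 0.01, and 46.7% of differences were negative. The 95% confidence intervals reached from 0.13 to 0.34 on either side of the difference, which is 1.09-fold to 1.26-fold. Changes smaller than these could easily be missed even without adjustment. The intervals are not adjusted for the number of probe sets, so larger changes could be missed as well. By limma, the smallest adjusted p over all probe sets was 0.58. In whole ganglia, fewer cells of a type and less RNA per cell cannot be told apart.

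**Figure D1:**
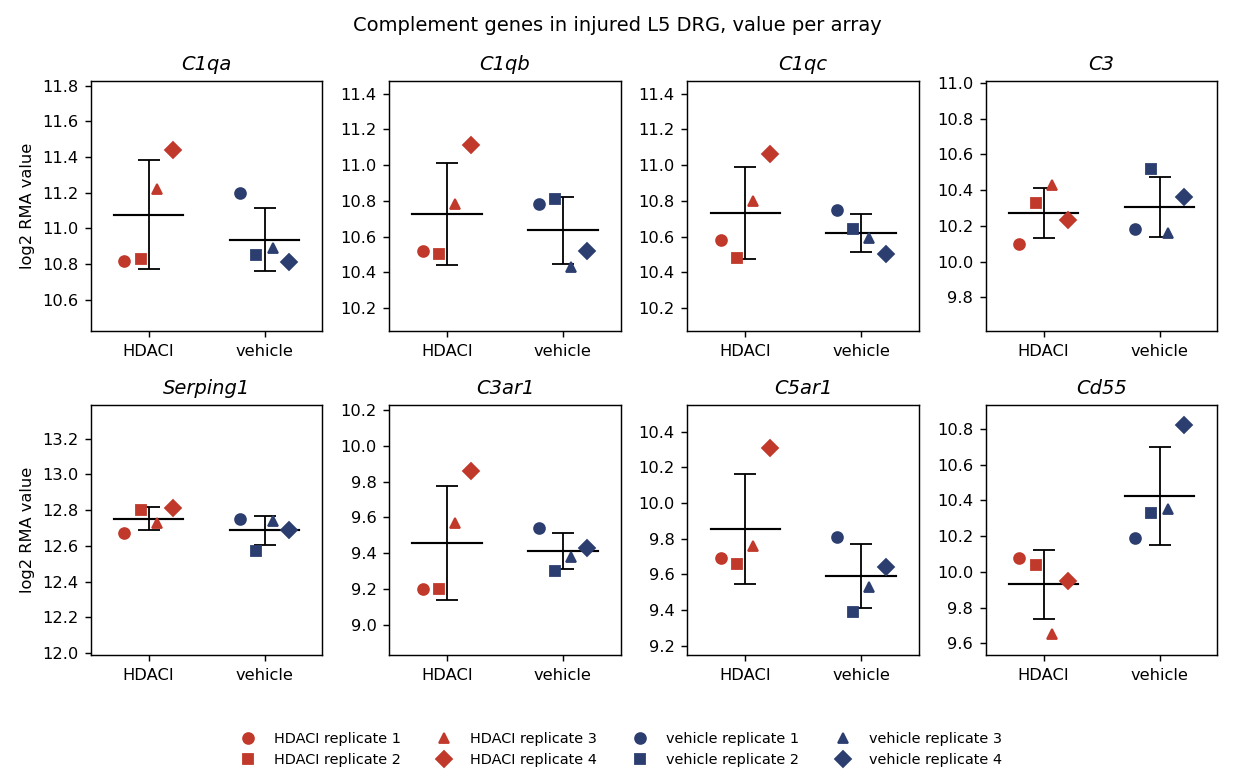
Each point is the log2 RMA value of 1 gene on 1 array, with HDACI (red) left of vehicle (dark blue) in each panel, replicate numbers given by marker shape, lines for the group means and bars for the SD (n = 4 each). All panels span the same log2 range. HDACI replicate 4 is the highest array for C1qa, C1qb, C1qc, C3ar1 and C5ar1, while the groups are apart only for Cd55.

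The 3 chains of C1q, the recognition protein of the classical pathway, are encoded by adjacent genes on chromosome 5 of the rat (RefSeq, assembly GRCr8). C1qa, the A chain, measured 10.82, 10.83, 11.22 and 11.44 in HDACI replicates 1 to 4, against 11.20, 10.85, 10.89 and 10.81 in vehicle replicates 1 to 4 (log2). The values of the groups overlapped, with HDACI replicates 3 and 4 and vehicle replicate 1 high and the other 5 arrays close together. The means were 11.08 ± 0.30 in HDACI and 10.94 ± 0.18 in vehicle (SD, n = 4 each), a difference of 0.14 ± 0.15 (SE), with a 95% confidence interval of 0.87-fold to 1.40-fold.

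C1qb, the B chain, measured 10.52, 10.50, 10.78 and 11.11 in HDACI replicates 1 to 4, against 10.78, 10.81, 10.43 and 10.52 in vehicle replicates 1 to 4. Its difference was 0.09 ± 0.14 (SE, interval from 0.85-fold to 1.34-fold). Vehicle replicates 1 and 2 lay beside HDACI replicate 3 here, so both groups were split into a higher and a lower pair. C1qc, the C chain, measured 10.58, 10.48, 10.80 and 11.06 in HDACI and 10.75, 10.64, 10.59 and 10.50 in vehicle. Its difference was 0.11 ± 0.12 (SE, interval from 0.89-fold to 1.31-fold). HDACI replicate 4 was the highest of the 8 arrays for all 3 chains.

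The positive differences of the C1q genes shrank without that array and grew under some other settings. Without HDACI replicate 4, C1qa differed by 0.02, C1qb by -0.03 and C1qc by 0.00. With the mean of the macrophage markers as a covariate they differed by 0.04, 0.00 and 0.03, and with array weights by 0.06, -0.01 and 0.01. With the mean of the skeletal muscle markers as a covariate they differed by 0.22, 0.26 and 0.16. Without vehicle replicates 1 and 2, the arrays highest in muscle, the differences were 0.23, 0.25 and 0.19.

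The C1q genes varied together from array to array. Over the 8 arrays, C1qa and C1qc had a Pearson r of 0.95 (exact permutation p = 0.000893, adjusted over 13 relations p = 0.00704; Spearman rho 0.90, exact permutation p = 0.00456, adjusted p = 0.0297). C1qb and C1qc had r = 0.92 (exact permutation p = 0.00325, adjusted p = 0.00704; rho 0.76, exact permutation p = 0.0368, adjusted p = 0.0796). C1qa and C1qb had r = 0.84 (exact permutation p = 0.0144, adjusted p = 0.0235; rho 0.55, exact permutation p = 0.171, adjusted p = 0.247). Without the 2 arrays farthest from the median of the second gene, r was 0.84, 0.76 and 0.70 for these pairs (exact permutation p = 0.0347, 0.0792 and 0.236 over 6 arrays), so the relation of C1qb to the other chains rested in part on those arrays. HDACI replicate 4 was among the arrays left out for each pair.

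Promoters of C1qa and C1qb are shown as those of the C1q genes that had a promoter window, which C1qc lacked. RefSeq promoter windows (assembly GRCr8, 250 bases before to 50 after the start of the gene, 5′ to 3′ on the gene's strand) were found for 5 of the 9 genes, Cd55, C1qa, C1qb, C3 and C3ar1. Capitals mark matches, on either strand, to 5 motifs, namely GAGGAA, the core bound by the myeloid factor PU.1, the CCAAT box, the TATAAA box, the GC box GGGCGG, bound by Sp1, and the motif TTCNNNGAA, bound by STAT factors and the same on both strands. A match on the opposite strand appears as its reverse complement. C1qa lies at chr5:154419884-154420183 and C1qb at chr5:154407778-154408077, both on the minus strand.
C1qa: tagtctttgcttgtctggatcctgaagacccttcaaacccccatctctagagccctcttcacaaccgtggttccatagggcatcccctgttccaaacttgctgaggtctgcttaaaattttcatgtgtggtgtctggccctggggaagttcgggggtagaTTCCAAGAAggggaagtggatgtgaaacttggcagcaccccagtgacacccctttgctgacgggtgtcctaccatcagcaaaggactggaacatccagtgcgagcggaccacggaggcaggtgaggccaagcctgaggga
C1qb: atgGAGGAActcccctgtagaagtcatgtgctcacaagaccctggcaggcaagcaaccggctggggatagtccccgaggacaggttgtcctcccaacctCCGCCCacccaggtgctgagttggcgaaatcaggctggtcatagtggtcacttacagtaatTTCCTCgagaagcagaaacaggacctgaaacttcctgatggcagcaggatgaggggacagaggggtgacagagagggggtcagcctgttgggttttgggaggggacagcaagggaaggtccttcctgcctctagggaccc
The C1qa window held 1 TTCNNNGAA match, which 8.87% of 33469 promoter windows held. That of C1qb held 2 GAGGAA matches (27.6% of windows held at least 1) and 1 GGGCGG match (33.1%). Neither window held CCAAT (37.5%) or TATAAA (14.2%), no matches overlapped, and no motif was common to both. A match is a description of the sequence only.

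C3, the central component that all pathways cleave, measured 10.10, 10.33, 10.43 and 10.23 in HDACI replicates 1 to 4, against 10.18, 10.52, 10.16 and 10.36 in vehicle replicates 1 to 4. The groups lay within the same range, and HDACI replicate 4 was not among the highest arrays. The difference was -0.03 ± 0.10 (SE, interval from 0.84-fold to 1.14-fold). It changed sign in 4 of 19 alternative settings, between -0.09 and 0.04, each smaller in size than its SE. No relation of C3 to the macrophage markers passed the test over the 8 arrays (r = -0.06, exact permutation p = 0.907, adjusted p = 0.907; rho 0.33, exact permutation p = 0.428, adjusted p = 0.506), and without the 2 farthest arrays r was 0.63 (exact permutation p = 0.181).

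Serping1, the C1 inhibitor, which blocks the proteases of C1, was the steadiest of the genes. It measured 12.67, 12.80, 12.73 and 12.81 in HDACI replicates 1 to 4, against 12.75, 12.57, 12.74 and 12.69 in vehicle replicates 1 to 4. Its spread within groups (SD 0.07) stood at the 28.4th percentile of all probe sets, whereas the C1q genes, both receptors and Cd55 stood between the 88.4th and the 93.5th. The difference was 0.07 ± 0.06 (SE, interval from 0.96-fold to 1.15-fold), the narrowest interval of the 7 genes. Serping1 was lowest in vehicle replicate 2, the array also lowest in markers of fibroblasts and meninges (mean -0.28, centred as above), and highest in HDACI replicate 4, the highest in them (0.37). The part of such cells in its values was not tested. C3 and Serping1 had r = -0.41 over the 8 arrays (exact permutation p = 0.322, adjusted p = 0.349; rho -0.26, exact permutation p = 0.536, adjusted p = 0.536), and r = 0.30 without the 2 farthest arrays (exact permutation p = 0.562).

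HDACI replicate 4 was also the highest array for both anaphylatoxin receptors. C3ar1, the receptor of the C3a fragment, measured 9.20, 9.20, 9.57 and 9.86 in HDACI replicates 1 to 4, against 9.54, 9.30, 9.38 and 9.43 in vehicle replicates 1 to 4. The HDACI arrays lay on both sides of the vehicle arrays, 2 above all of them and 2 below, with a difference of 0.04 ± 0.14 (SE, interval from 0.82-fold to 1.29-fold). Without HDACI replicate 4 the difference was -0.09.

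C5ar1, the receptor of the C5a fragment on neutrophils and macrophages, had the largest difference of the 7 genes. It measured 9.69, 9.66, 9.76 and 10.31 in HDACI replicates 1 to 4, against 9.81, 9.39, 9.53 and 9.64 in vehicle replicates 1 to 4. All 4 HDACI arrays lay above the vehicle mean of 9.59, but only replicate 4 lay above every vehicle array. The difference was 0.27 ± 0.15 (SE, interval from 0.95-fold to 1.52-fold), and 0.11 without HDACI replicate 4. Of the neutrophil markers, 2 of 10 were brighter than the median probe set, and their mean lay between -0.16 and 0.17 in HDACI arrays and between -0.16 and 0.10 in vehicle arrays. C3ar1 and C5ar1 had r = 0.81 (exact permutation p = 0.0206, adjusted p = 0.0298). Their rho was 0.60 (exact permutation p = 0.132, adjusted p = 0.246), and r was 0.89 after removal of the group means. Without the 2 farthest arrays, HDACI replicate 4 and vehicle replicate 2, r was 0.43 (exact permutation p = 0.408), so the relation rested largely on those arrays.

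**Figure D2:**
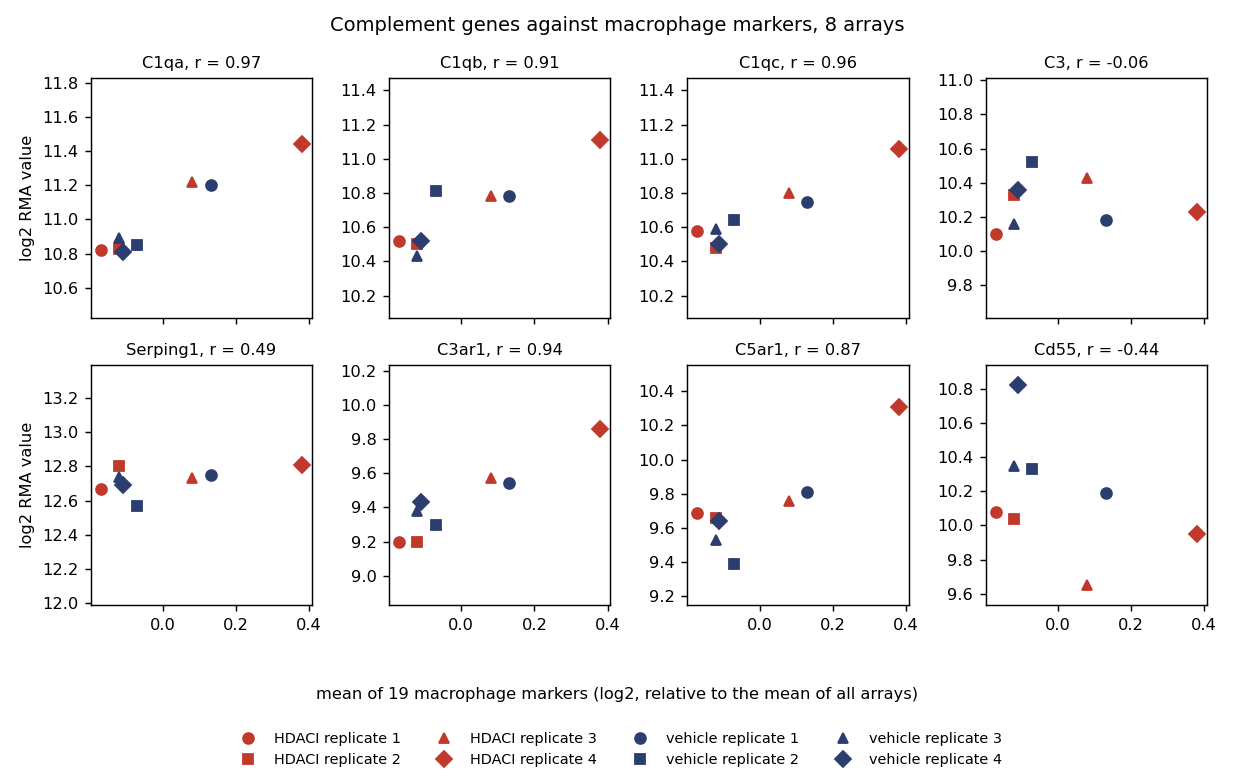
Each point is 1 array (red for HDACI, dark blue for vehicle), with the mean of 19 macrophage markers on the x axis (log2, centred on the average array) and the log2 RMA value of 1 gene on the y axis, which spans the same range in all panels. C1qa, C1qb, C1qc and C3ar1 climb with the markers (r from 0.91 to 0.97), HDACI replicate 4 lies far to the right in each panel, and C3, Serping1 and Cd55 show no such order.

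The mean of the macrophage markers, a list that holds none of the 9 genes, ordered the arrays much as C1q and C3ar1 did. Pearson r with it was 0.97 for C1qa, 0.91 for C1qb, 0.96 for C1qc and 0.94 for C3ar1 (exact permutation p = 0.00255, 0.0032, 0.00221 and 0.00171, adjusted p = 0.00704 for each). Spearman rho was 0.79, 0.76, 0.86 and 0.90 in the same order (exact permutation p = 0.0279, 0.0368, 0.0107 and 0.00456, adjusted p = 0.0796, 0.0796, 0.0464 and 0.0297). After removal of the group means r was 0.97, 0.91, 0.96 and 0.95. This r pools both groups and still holds HDACI replicate 4, the array highest in the markers. It was not computed within each group alone. Without HDACI replicate 4 and vehicle replicate 1 r was 0.93, 0.75, 0.87 and 0.81 (exact permutation p = 0.0542, 0.0583, 0.0514 and 0.0403 over 6 arrays), and of these only C3ar1 passed 0.05. C5ar1 had r = 0.87 with the markers (exact permutation p = 0.0113, adjusted p = 0.021). Its rho was 0.55 (exact permutation p = 0.171, adjusted p = 0.247). For C5ar1 r was 0.90 after removal of the group means and 0.26 without those arrays (exact permutation p = 0.615), so its relation rested largely on them. Leaving out the farthest arrays also narrows the range, which can itself lower r. For Serping1 r was 0.49 (exact permutation p = 0.221, adjusted p = 0.287; rho 0.38, exact permutation p = 0.36, adjusted p = 0.468), and without the 2 arrays it was 0.02 (exact permutation p = 0.964). For Cd55 r was -0.44 over the 8 arrays and -0.41 after removal of the group means, given as a description. Its permutation p counted among the 13 relations of the adjustment. It is not given, because the gene was picked on these values.

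Among 14494 other genes, those most like the mean of the 3 C1q genes, after removal of group means, were Unc93b1, which carries Toll-like receptors to endosomes (r = 0.989), the haematopoietic integrin activator Fermt3 (0.984), the adhesion molecule Ninj1 (0.983), the adaptor Sla (0.983) and Csf1r, the receptor that macrophages need for survival (0.980). Over only 8 arrays high values are common, and 103 genes exceeded 0.9. C3ar1 had r = 0.92 and C5ar1 0.81 with the same mean, while C3 had 0.05, Serping1 0.27 and Cd55 -0.52. Csf1r is itself one of the macrophage markers. The differences of these 5 genes between groups lay between 0.09 and 0.15 (log2), with 0.10 ± 0.15 for Unc93b1 and 0.09 ± 0.09 for Csf1r (SE).

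Cd55, or decay accelerating factor, is a membrane-anchored protein that takes apart the convertases of C3 and C5 and so shields cells from complement. It measured 10.08, 10.04, 9.65 and 9.95 in HDACI replicates 1 to 4, against 10.19, 10.33, 10.35 and 10.82 in vehicle replicates 1 to 4 (log2). Every HDACI array lay below every vehicle array, with HDACI replicate 3 lowest and vehicle replicate 4 highest. The means were 9.93 ± 0.19 in HDACI and 10.42 ± 0.27 in vehicle (SD, n = 4 each), a difference of -0.49 ± 0.14 (SE), or 0.71-fold. This is the measurement for which the gene was picked, and nothing is read from its size.

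Under the alternative settings the Cd55 difference lay between -0.65 and -0.36, where its sign could not turn when arrays were left out, since the groups do not overlap. It was -0.36 without vehicle replicate 4 and -0.40 without HDACI replicate 3, the extreme arrays. With the mean of the skeletal muscle markers as a covariate it was -0.60, and without vehicle replicates 1 and 2, the arrays highest in muscle, it was -0.65. With the mean of the macrophage markers as a covariate it was -0.45. Markers of sensory neurons had the same lowest and highest array as Cd55 within the vehicle group, but not within the HDACI group. Of the 13 measured, 11 were lower in HDACI, with a median of -0.07, and their mean lay between -0.14 and -0.01 in HDACI arrays and at -0.15, 0.05, -0.04 and 0.37 in vehicle replicates 1 to 4. Among vehicle arrays, replicate 1 was thus lowest and replicate 4 highest in both. Among HDACI arrays, replicate 3 was lowest in Cd55 but at -0.03 in the markers, where replicate 4 was lowest (-0.14). Vehicle replicate 1 was lowest of all arrays in the markers. In Cd55 every vehicle array lay above every HDACI array, so nothing is read from its place there. The part of neuronal RNA in the Cd55 values was not tested.

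**Figure D3:**
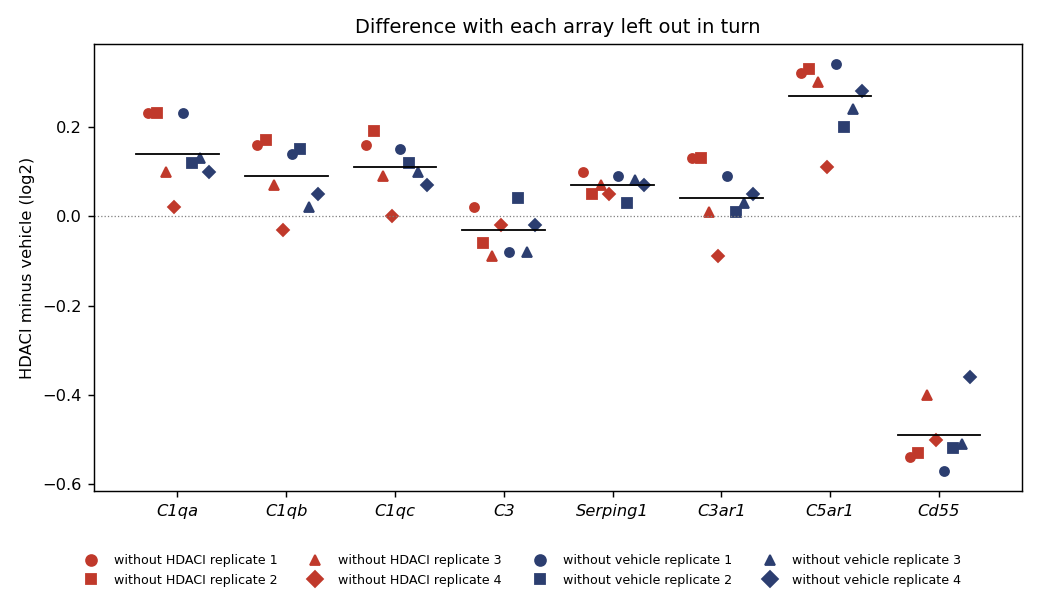
Points give the difference between groups (HDACI minus vehicle, log2) of each gene with 1 array left out, in red for HDACI arrays and dark blue for vehicle arrays, with marker shapes for the replicate left out and a black line for the difference with all 8 arrays. Without HDACI replicate 4 the C1q genes and C3ar1 lie between -0.09 and 0.02. The points of Cd55 describe the value it was picked for, whose sign is fixed when groups do not overlap.

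The promoter window of Cd55 is shown beside those of C1qa and C1qb because Cd55 did not move with them. It lies at chr13:44438052-44438351 (GRCr8, minus strand), with capitals as before.
Cd55: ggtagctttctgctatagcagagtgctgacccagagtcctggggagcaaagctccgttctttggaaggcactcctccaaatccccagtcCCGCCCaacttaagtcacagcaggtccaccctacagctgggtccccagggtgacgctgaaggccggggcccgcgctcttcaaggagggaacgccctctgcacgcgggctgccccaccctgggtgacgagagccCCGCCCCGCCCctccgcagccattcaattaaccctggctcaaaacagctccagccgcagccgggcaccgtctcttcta
It held 3 GGGCGG matches, all read on the opposite strand, 2 of which overlap by 1 base just before the start, and none of the other motifs. Its GC content was 63.7%, against 54.7% for C1qa, 57.7% for C1qb and a median of 51.7% over all windows. CG dinucleotides numbered 16 in the Cd55 window, 6 in that of C1qa and 5 in that of C1qb, with a median of 7 over all windows.

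Genes beside Cd55 on chromosome 13 include the complement regulators C4bpa and C4bpb, chains of the C4b-binding protein. Of the 8 protein-coding genes on each side, taken by position with the values of Cd55 known, 9 of 16 were measured. Their differences lay between -0.08 and 0.17, and by limma 0 of 9 passed an unadjusted p of 0.05, which is near the background of 1.93% lower and 1.61% higher and so no result about these genes. C4bpa differed by 0.10 ± 0.14 and C4bpb by 0.17 ± 0.12 (SE).

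Genes whose values followed Cd55 from array to array, after removal of group means, were Grik1, a kainate receptor subunit of small sensory neurons (r = 0.958), the peptide Iapp (0.952), the RNase Ybey (0.949), Spred3 (0.948), which restrains Ras signalling, and the Ras activator Sos2 (0.947). These were the highest of 14496 genes, of which 28 exceeded 0.9. High values are common over only 8 arrays, so nothing is read from these relations. Differences between groups were -0.28 ± 0.21 for Grik1, -0.03 ± 0.07 for Iapp, -0.12 ± 0.08 for Ybey, 0.14 ± 0.10 for Spred3 and 0.00 ± 0.04 for Sos2 (log2, SE). None of them passed an unadjusted limma p of 0.05. Over all probe sets 1.93% were lower and 1.61% higher at that threshold, so this is no result about these genes.

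**Figure D4:**
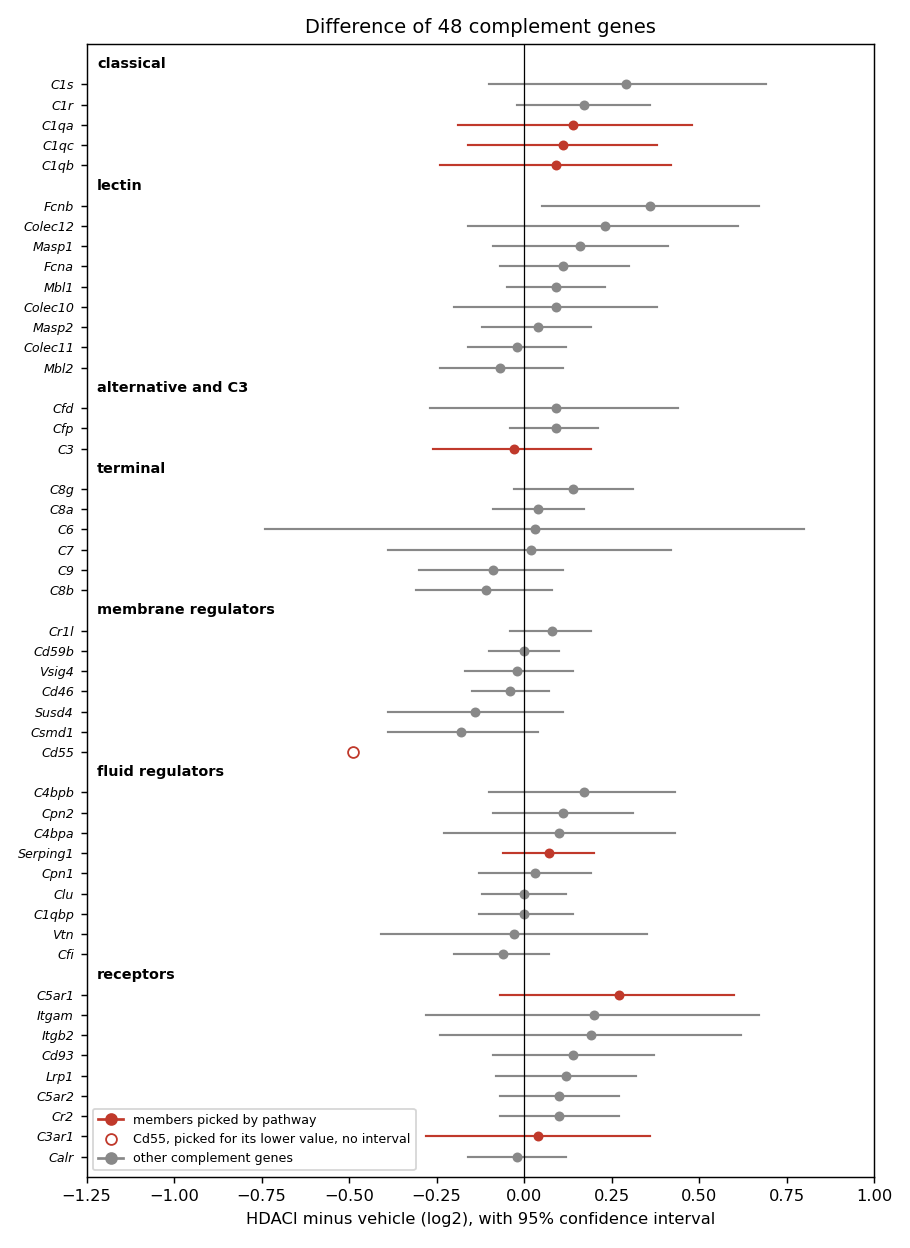
Points give the difference between groups (HDACI minus vehicle, log2) and lines its 95% confidence interval, for the 7 genes picked by pathway in red and 40 other complement genes in grey, grouped by role. The open red point is Cd55 at -0.49, shown with no interval because it was picked for this value. Of the other genes Fcnb alone has an interval that leaves out 0.

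The rest of the pathway was examined with 40 further complement genes that had a probe set of their own. By limma, 0 of 40 passed the adjusted threshold, and at an unadjusted p of 0.05, 1 was higher and 0 were lower in HDACI. The share of 2.5% stands close to the background of 1.61%. Of these 40 differences 28 were positive and 12 negative, with a median of 0.08. Over all probe sets 46.7% of differences were negative. For 0 of the 40 genes did the groups stand apart. Over all probe sets 1.09% had every HDACI array below every vehicle array and 1.01% every one above, so this is no result about these genes.

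In the classical pathway, C1r and C1s, the proteases that C1q activates, differed by 0.17 ± 0.08 and 0.29 ± 0.17 (SE), where C1r is named after its values were seen, as the only other measured gene of the group. The difference of C1s was 0.18 without HDACI replicate 4 and 0.43 without vehicle replicate 1, and by limma it passed an unadjusted p of 0.05 only without that vehicle array among the settings tried. C1s measured 10.91, 11.27, 11.15 and 11.55 in HDACI replicates 1 to 4, against 11.34, 10.66, 11.01 and 10.70 in vehicle replicates 1 to 4. It was lowest in vehicle replicates 2 and 4, the arrays lowest in markers of fibroblasts and meninges (-0.28 and -0.24), and highest in HDACI replicate 4 (0.37), and the part of these cells in its values was not tested. All 12 of those markers had positive differences, with a median of 0.16.

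The lectin pathway recognises sugars on microbes and damaged cells. Of its 9 genes 7 had positive differences, with a median of 0.09. Fcnb, the ficolin of myeloid cells, measured 9.09, 9.43, 9.68 and 9.07 in HDACI replicates 1 to 4, against 8.77, 9.10, 9.01 and 8.95 in vehicle replicates 1 to 4. The groups overlapped by vehicle replicate 2, which lay above HDACI replicates 1 and 4. The difference was 0.36 ± 0.14 (SE, interval from 1.03-fold to 1.59-fold, adjusted p = 1.0 by limma). It did not pass the unadjusted threshold of 0.05 without HDACI replicate 2 (difference 0.32) or 3 (0.24), nor without vehicle replicate 1 (0.30) or 4 (0.36), nor without vehicle replicates 1 and 2 together (0.34), nor with the muscle markers as a covariate (0.32).

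Properdin, Cfp, which steadies the alternative convertase, differed by 0.09 ± 0.05 (SE), and by 0.05 without HDACI replicate 4 and 0.03 with the muscle markers as a covariate. By limma it passed an unadjusted p of 0.05 only without HDACI replicate 2. Of the 6 measured genes of the terminal pathway, which forms the membrane attack complex, C8g had the largest difference, 0.14 ± 0.08 (SE), which was 0.07 without vehicle replicate 4. The 6 other membrane regulators differed by -0.18 to 0.08. Cd46, Cd59b and Cr1l, named here after their values were seen, differed by -0.04 ± 0.05, 0.00 ± 0.04 and 0.08 ± 0.05 (SE). Susd4 and Vsig4, named in the same way, differed by -0.14 ± 0.11 and -0.02 ± 0.07 (SE). Csmd1, a large membrane protein of neurons that restrains complement, differed by -0.18 ± 0.10 (SE), and by -0.34 with the muscle markers as a covariate, -0.26 without vehicle replicate 1 and -0.12 without HDACI replicate 4 or vehicle replicate 3. By limma it passed an unadjusted p of 0.05 with that covariate, with array weights and without vehicle replicate 1, alone or together with replicate 2. Under the other settings it did not pass.

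Of the 8 other regulators in the fluid phase, 5 had positive and 3 negative differences, and C4bpb had the largest, which was 0.27 without vehicle replicate 4 and 0.10 without HDACI replicate 1. Of the 7 other receptors 6 were highest in HDACI replicate 4, as were 6 of the 7 genes picked by pathway and 13 of 19 macrophage markers, against 16.4% of all 14497 genes. In the other groups this array was highest for 2 of 2 classical, 3 of 9 lectin, 1 of 2 alternative and 2 of 6 terminal pathway genes, and for 0 of 6 membrane and 0 of 8 fluid regulators. Itgam, the alpha chain of complement receptor CR3 on macrophages and neutrophils, measured 8.53, 8.71, 8.52 and 9.52 in HDACI replicates 1 to 4, against 8.85, 8.57, 8.45 and 8.62 in vehicle replicates 1 to 4. HDACI replicate 4 alone was high, and the difference was 0.20 ± 0.21 (SE). Without that array the direction turned, to -0.04. Its partner Itgb2, named after its values were seen, was likewise highest in HDACI replicate 4, with 9.66, 9.68, 9.85 and 10.56 in HDACI and 9.90, 9.81, 9.56 and 9.71 in vehicle, and a difference of 0.19 ± 0.19 (SE).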

How the data were processed

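Values were the log2 signals that the authors deposited, 1 column for each of the 8 arrays. Per the study's methods, the authors preprocessed the arrays by RMA in the Bioconductor package oligo (background correction, quantile normalization and a summary per probe set). No version of these tools is stated in the sources used here. After RMA the arrays have nearly the same distribution (medians 8.13 to 8.16), so a change shared by all transcripts cannot be seen, and differences of dim probe sets are compressed. Precision is limited by the number of arrays, since signals carry no count of reads.

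Groups and replicate numbers came from sample titles. The treatment text of all 8 samples names MS-275, and the vehicle group rests on the titles and source names. Probe sets were named from the platform annotation, where 15209 carry 1 symbol, 306 several and 13311 none; per gene the brightest probe set was used. Differences (HDACI minus vehicle) were tested two-sided with limma 3.58.1 in R 4.3.3 (lmFit, eBayes) over all 28826 probe sets, with Benjamini-Hochberg adjustment. The fit was checked on simulated data. Correlations over the 8 arrays used two-sided exact permutation tests over all 40320 pairings (Python 3.11.15, NumPy 2.4.6), and 13 of 15 intended relations were computed, since those with Cfb had no value. Percentiles of brightness and spread compare probe sets, not transcript amounts.

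The members and the lists (59 complement genes in 7 groups, 48 of them measured, and 127 marker genes of 10 cell types, 109 of them measured) were chosen with earlier results of these data known. Named were the members, other complement genes past an unadjusted p of 0.05, the one with the largest difference in each group, and the 5 genes most like Cd55 and like C1q. Arrays are biological replicates per the study's methods, and no 2 arrays held the same values. Alternatives tried were a replicate block, cyclic loess, quantile normalization repeated, centring on medians, a filter on dim probe sets, array weights, robust variances with an intensity trend, muscle or macrophage markers as covariates, vehicle replicates 1 and 2 left out, each array left out, and the mean of a gene's probe sets.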

Additional observations from a re-analysis of the deposited data

Results flagged for a closer look

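In groups of 4 arrays, a single array lay far from the other 3, relative to the range of its group, in 3 of 30 combinations of gene and group examined; chance gives about 1 in 20, which is 5%. C5ar1 measured 10.31 in HDACI replicate 4, with the nearest other HDACI array at 9.76. C8g measured 9.15 in vehicle replicate 4, with the nearest other vehicle array at 9.42. C4bpb measured 6.50 in the same vehicle array, with the nearest other vehicle array at 6.11.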

How the results depend on the processing

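Under 19 alternatives, 0 of the 7 measured genes picked by pathway passed the adjusted threshold, by limma, and the median difference of these 7 genes ran between 0.00 and 0.17 with each array left out. It was 0.00 without HDACI replicate 4, 0.01 with array weights, 0.03 with the macrophage markers as a covariate and 0.19 without vehicle replicates 1 and 2. Of the 40 other complement genes, 1 passed an unadjusted p of 0.05 with all arrays. That count was 6 with array weights, 2 with the macrophage markers as a covariate, and 0 to 4 with each array left out (0 without HDACI replicate 3, 2 without HDACI replicate 1, 3 without HDACI replicate 4 and 4 without vehicle replicate 1). No such gene passed after adjustment under these settings, and the cause was not tested. The share of all probe sets past the unadjusted threshold is not given for array weights, covariates or arrays left out. Those counts are therefore no result about complement genes. With the replicate number as a block, the count of the 40 genes was 1 and that of all probe sets past an unadjusted p of 0.05 was 803, against 1022 without it, and 0 probe sets passed adjustment in either. Deviations of same-numbered arrays from their group means had r = -0.04, 0.01, 0.01 and -0.28 for numbers 1 to 4. The titles name no pairing. These r cannot exclude a shared step in processing, since other differences between arrays also enter them. The replicate block left each difference of the members as it was, since it is balanced. With 4 arrays per group, the precision is that of the confidence intervals given.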
